A study of Mus musculus with 4 samples.

Results

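The 43 genes described here act in cell division, in DNA replication or at the entry into the cell cycle, and they were followed across 4 RNA sequencing libraries of microglia from mouse cerebral cortex at embryonic day 16. They were taken by gene symbol from the deposited tables, which list 21981 genes, and all 43 had reads in every library. By role, 15 are replication genes of S phase, 22 are genes of G2 and mitosis, 5 are D- and E-type cyclins, and Pif1, a DNA helicase, was kept apart. The libraries cKO 2 and cKO 5 are labelled Bach1 cKO, a conditional knockout whose driver the series text names Cx3, and the libraries control 1 and control 6 are labelled Bach1 fl/fl, mice that carry the floxed allele. All 4 are labelled untreated. Bach1 encodes a heme-binding transcription factor that represses antioxidant genes. The sources used here do not say how the microglia were isolated or whether each library came from a separate animal, so p-values measure only the spread between these samples. The series text speaks of triplicates, and further samples were not analysed here.

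A dividing cell first licenses its replication origins by loading the MCM helicase, then activates the helicase and copies its DNA in S phase, and later condenses, aligns and separates the chromosomes in mitosis. In mammals, many replication genes are switched on by E2F factors late in G1, while genes of G2 and mitosis are typically held down by the DREAM complex until late in the cycle, through a CHR element that often lies near CCAAT boxes bound by NF-Y. Microglia of the embryonic brain multiply within the tissue, and cortical radial glia and intermediate progenitors divide there at the same age, so transcripts of these genes can come from several cell types of the cortex.

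Promoter sequence differed between the replication genes and the genes of G2 and mitosis. RefSeq promoter windows of mouse build GRCm38.p6, from 250 bases before to 50 bases after the annotated start, were at hand for 32 of the 43 genes. Exact matches on either strand were sought for 4 forms of the E2F site, spelled TTTGGCGC, TTTCCCGC, TTTGCCGC or TTTCGCGC. The same was done for the CHR element, spelled TTTGAA or the palindrome TTCGAA, and for the box CCAAT. An E2F match stood in 6 of 12 replication promoters, in 1 of 18 promoters of G2 and mitosis genes (Cdk1) and in 2.32% of the promoters of all 27025 genes. A CHR element stood in 15 of 18 promoters of G2 and mitosis genes, in 3 of 12 replication promoters and in 19.4% of all. A CCAAT box stood in 17 of 18 promoters of G2 and mitosis genes, in 9 of 12 replication promoters and in 37.9% of all. A CHR element and a CCAAT box together stood in 15 of 18 promoters of G2 and mitosis genes, in 3 of 12 replication promoters and in 7.70% of all. The promoters of Ccnd3 and Ccne1, the D- and E-type cyclins with a window, held none of these matches. A match describes letters and is not a bound site.

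The following sequences are the 250 bases upstream of the start for the most abundant replication genes with an upstream E2F match and the most abundant G2 and mitosis genes with a CHR element. Mcm3, more abundant than both, had its E2F matches only after the start and is not shown. The sequences read 5′ to 3′ on the strand of the gene. Capitals mark E2F matches in Mcm6 (chr1:128359706-128359955, minus strand) and Mcm5 (chr8:75109259-75109508, plus strand), where neighbouring matches on opposite strands overlap. In Top2a (chr11:99024190-99024439, minus strand) and Cdc20 (chr4:118437344-118437593, minus strand), capitals mark CHR elements and CCAAT boxes.
Mcm6: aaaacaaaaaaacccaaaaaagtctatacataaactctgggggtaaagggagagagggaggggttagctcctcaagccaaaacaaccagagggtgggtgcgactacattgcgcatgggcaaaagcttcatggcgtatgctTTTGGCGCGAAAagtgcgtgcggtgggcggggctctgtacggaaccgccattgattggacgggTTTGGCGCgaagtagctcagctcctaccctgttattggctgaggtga
Mcm5: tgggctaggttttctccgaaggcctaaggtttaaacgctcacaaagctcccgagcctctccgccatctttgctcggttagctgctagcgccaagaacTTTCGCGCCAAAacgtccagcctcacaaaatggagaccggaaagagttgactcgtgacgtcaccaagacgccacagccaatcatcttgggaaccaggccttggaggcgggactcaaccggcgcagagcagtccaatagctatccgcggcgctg
Top2a: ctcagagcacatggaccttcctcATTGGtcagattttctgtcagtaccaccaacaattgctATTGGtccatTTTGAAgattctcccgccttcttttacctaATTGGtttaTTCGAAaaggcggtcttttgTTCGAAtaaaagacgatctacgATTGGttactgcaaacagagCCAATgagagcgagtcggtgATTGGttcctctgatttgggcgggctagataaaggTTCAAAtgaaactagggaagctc
Cdc20: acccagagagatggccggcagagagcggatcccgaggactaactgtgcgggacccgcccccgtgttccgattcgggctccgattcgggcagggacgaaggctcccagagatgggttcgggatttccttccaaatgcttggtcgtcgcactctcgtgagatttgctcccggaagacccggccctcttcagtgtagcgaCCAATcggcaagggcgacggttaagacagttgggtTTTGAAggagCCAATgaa
Cdc20 had a single CHR element between its CCAAT boxes close to the start, whereas Top2a had 4 CHR elements spread among 6 CCAAT boxes over the whole stretch.

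Library totals ran from 17233115 to 19305078 reads, and 3 reads, the floor used here, corresponded to 0.155 to 0.174 CPM (a count scaled to the total of its library). That floor covers counting error only. The least counted value of any of the 43 genes was 61 reads and the highest 6203. Below, a level is CPM after TMM scaling, which divides by a factor that removes the trimmed mean difference between libraries, unless a sentence says otherwise, and the values of a genotype follow the library numbers, lower number first. The targeted gene Bach1 had 26.1 and 38.5 CPM in the cKO libraries, against 44.3 and 23.5 CPM in the control libraries, and the groups overlapped. These counts cover the whole gene, so they do not check the deletion. Microglia markers were high in all 4 libraries, and the 20 on the list summed to 9482 and 45754.5 CPM in the cKO libraries and to 28815 and 51648 CPM in the control libraries. Markers of other cortical cells were present too. The 13 radial glia markers summed to 1409 and 224 CPM in the cKO libraries, against 738 and 266 CPM in the control libraries, and so differed several-fold within each genotype. The 15 excitatory neuron markers summed to 10215 and 1493 CPM in the cKO libraries, against 3894 and 1488 CPM in the control libraries. In cKO 2 their sum exceeded that of the microglia markers, but 5945 CPM of it came from Tuba1a alone. Sums of different lists do not compare amounts of cells. In bulk RNA, fewer cells of a type and less RNA per cell cannot be told apart.

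The summed levels of the replication genes and of the G2 and mitosis genes were similar in all 4 libraries, although sums of cell type markers differed several-fold. Summed over the 15 replication genes, the level was 1247 and 1627 CPM in the cKO libraries, against 1282 and 1472 CPM in the control libraries. Over the 22 genes of G2 and mitosis it was 1819 and 2159 CPM in the cKO libraries, against 1683 and 1730 CPM in the control libraries. The D- and E-type cyclins summed to 580 and 392 CPM in the cKO libraries, against 540 and 355 CPM in the control libraries. The replication and the cyclin sums of the genotypes overlapped and the mitotic sums did not. Without the TMM factors, on library totals, both sums were higher in both cKO libraries, with 1431 and 1496 CPM against 1324 and 1351 CPM for replication and 2087 and 1985 CPM against 1739 and 1587 CPM for G2 and mitosis.

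**Figure D1:**
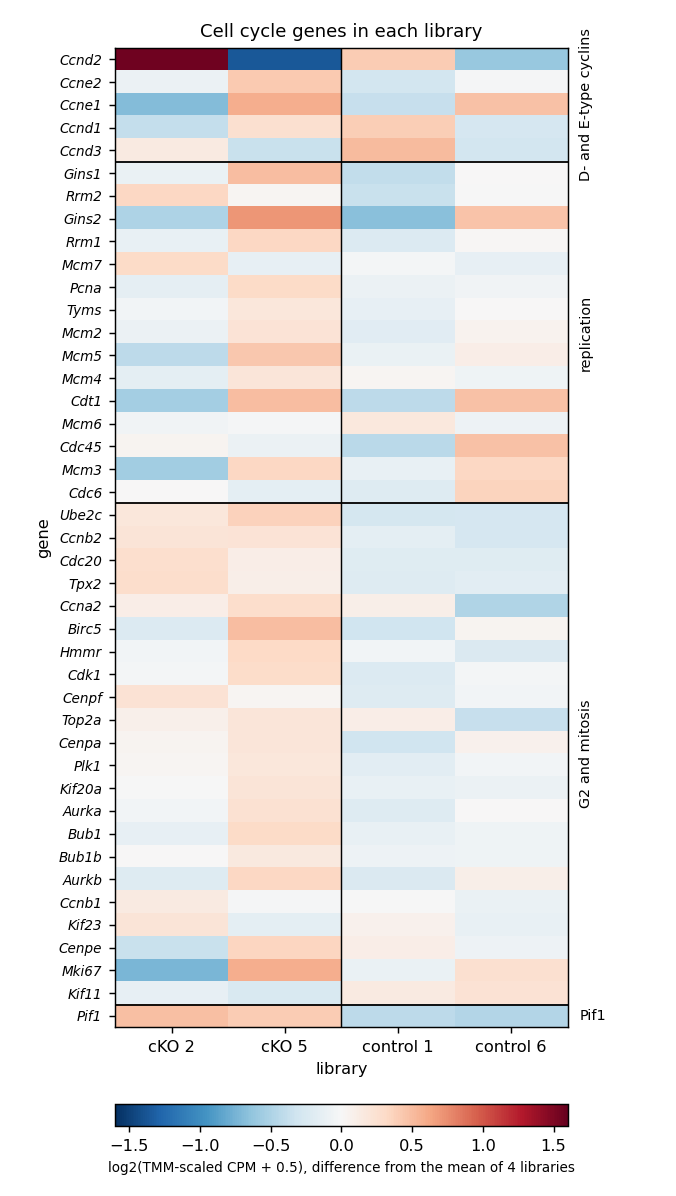
Each cell shows the log2 level (TMM-scaled CPM + 0.5) of a gene in a library as the difference from its mean over the 4 libraries, with the 2 cKO libraries left of the line and genes grouped by role and ordered by fold change. Ccnd2 spans the widest range, at 1.56 in cKO 2 and -1.36 in cKO 5, while most replication and mitotic genes stay pale.

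Between cKO 2 and cKO 5, 5 of the 43 genes differed by at least 2-fold (Mki67, Ccne1, Ccnd2, Cdt1 and Gins2), beside 43.8% of all 15951 genes tested. Between control 1 and control 6, 2 of the 43 did (Ccnd2 and Gins2), beside 22.7% of all genes. The median absolute log2 difference of the 43 genes was 0.32 between the cKO libraries and 0.21 between the control libraries, where all genes tested had 0.84 and 0.47. Over the 4 libraries, the median SD of the log2 level was 0.25 for the 43 genes and 0.51 for all genes tested. It was 0.41 for the 10695 genes whose mean CPM lay in the range of the 43. On library totals, 1 of the 43 differed by at least 2-fold between the cKO libraries and 1 between the control libraries, beside 44.2% and 23.9% of all genes. This evenness is relative to the whole transcriptome: scaled to the summed microglia markers instead, 41 of the 43 genes differed by at least 2-fold between the cKO libraries, beside 83.4% of all genes.

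**Figure D2:**
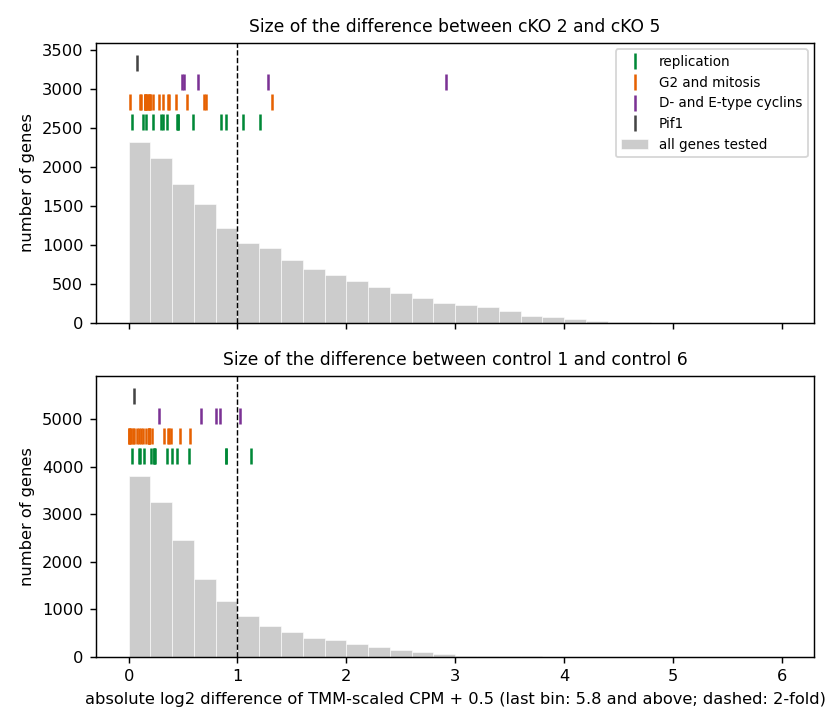
Grey bars count all genes tested by the absolute log2 difference of their level between the libraries of a genotype, cKO above and control below, and coloured ticks mark the 43 genes by role. Most ticks lie left of the dashed 2-fold line, with 5 genes at or beyond it between the cKO libraries and 2 between the control libraries.

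**Figure D3:**
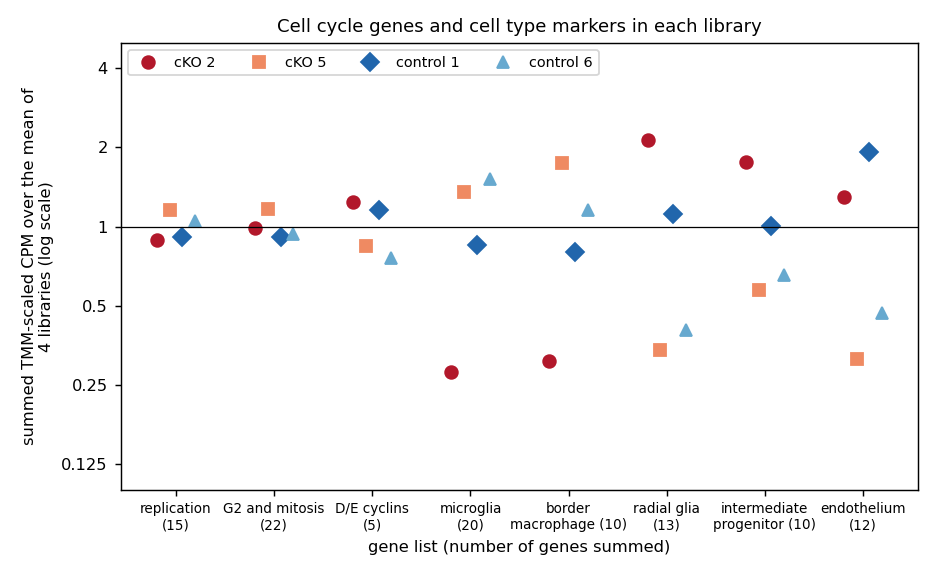
Points show the summed level (TMM-scaled CPM) of each gene list in each library, divided by its mean over the 4 libraries, on a log axis. The replication and the G2 and mitosis sums cluster near 1 in every library, while marker sums of microglia, border macrophages, radial glia, intermediate progenitors and endothelium spread widely within a genotype.

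No gene of the 43 passed the test between genotypes. With the quasi-likelihood test of edgeR and Benjamini-Hochberg adjustment, 0 of the 43 had an adjusted p under 0.05, beside 0% of all 15951 genes tested. At an unadjusted p under 0.05 the count was also 0 of 43, beside 0.307% (49) of all genes. DESeq2 and limma-voom likewise called 0 genes after adjustment. At an unadjusted p under 0.05 they gave 74 and 37 genes of all those tested and 0 of the 43. The test had 2 residual degrees of freedom and a biological coefficient of variation of 0.652, so standard errors were wide. By sign alone, 33 of the 43 fold changes of cKO over control were positive and 10 negative. Without cKO 5 the positive ones numbered 23, and when any other library was left out 33 to 36. With all 4 libraries, their median log2 fold change was 0.20, beside 0.03 for all genes tested, of which 52.8% were positive.

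Both cKO libraries lay above both control libraries for 12 of the 43 genes, beside 8.33% of all genes tested. Both lay below for 1, Kif11, beside 7.64% of all genes. Of the 12, 10 were genes of G2 and mitosis (of 22), 1 was a replication gene (Rrm2, of 15) and the last was Pif1. With 2 libraries a genotype, the smallest two-sided p of an exact permutation test on a single gene is 0.333. The counts moved with the scaling. On library totals, 16 of the 22 mitotic and 6 of the 15 replication genes had both cKO libraries above both controls. The share over all genes was 9.31%. The mitotic genes gained were Aurka, Aurkb, Bub1, Birc5, Cenpa and Hmmr, and the replication genes gained were Mcm2, Gins1, Tyms, Rrm1 and Pcna. Scaled to microglia markers, 2 mitotic and 3 replication genes lay above, beside 12.5% of all genes. Under that scaling the median over all genes tested stood at 1.24 on the log2 scale, a shift of the whole transcriptome, and it made every one of the 43 fold changes positive.

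**Figure D4:**
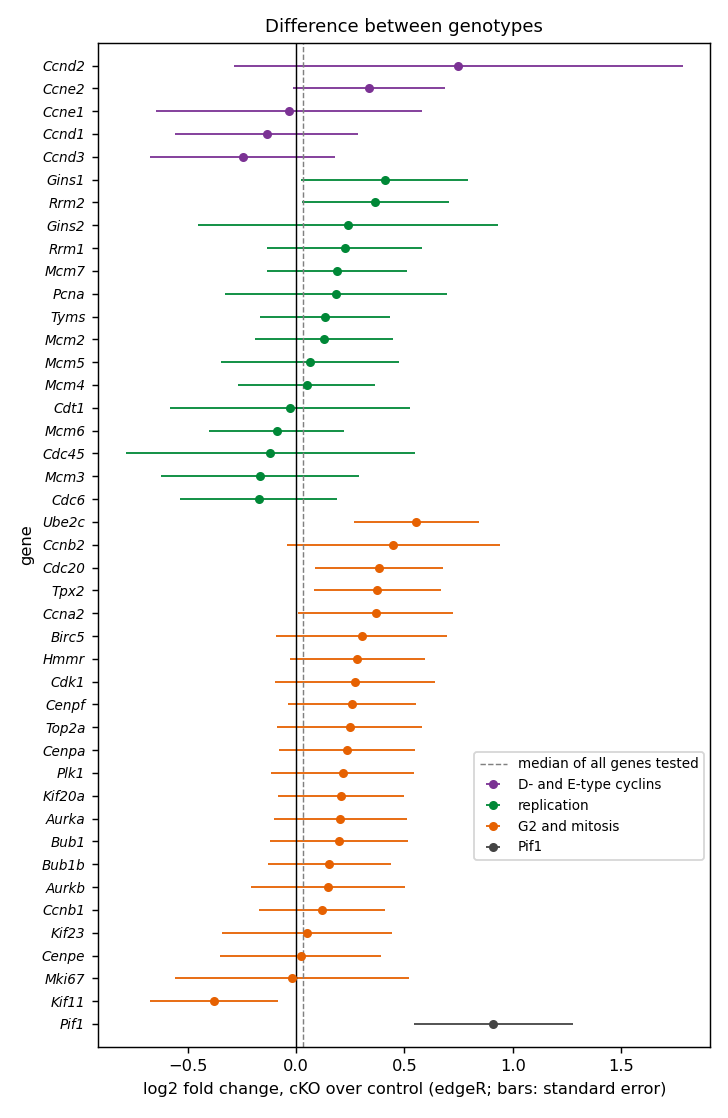
Points give the edgeR log2 fold change of cKO over control for each gene with its standard error as a bar, grouped by role, and the dashed line is the median of all genes tested. Of the 22 genes of G2 and mitosis, 20 lie right of zero, and Pif1 has the highest value at 0.91.

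Among the replication genes, 10 fold changes were positive and 5 negative, with a median log2 fold change of 0.13. Mcm2 to Mcm7 encode the ring of the replicative helicase. Per kilobase of exon, the mean level over the 4 libraries was 64.6 RPKM (CPM on library totals per kilobase) for Mcm3, 45.6 for Mcm6, 32.5 for Mcm5, 27.3 for Mcm7, 22.1 for Mcm2 and 12.4 for Mcm4. Subunits of the ring therefore differed up to several-fold in transcript level. Mcm6 was the most even over libraries among them, at 203 and 207 CPM in the cKO libraries and 237 and 199 CPM in the control libraries. The log2 fold change of cKO over control was -0.09 ± 0.31 (SE; edgeR adjusted p = 0.9997). Mcm3 had 163 and 303 CPM in the cKO libraries, against 221 and 302 CPM in the control libraries. The lowest value was that of cKO 2, and the groups overlapped fully, with a log2 fold change of -0.17 ± 0.46 (edgeR adjusted p = 0.9997). Mcm5 had the same order of libraries, at 95.8 and 173 CPM in the cKO libraries and 119 and 138 CPM in the control libraries. In both genes cKO 5 was highest and cKO 2 lowest.

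Mcm2 had 144 and 179 CPM in the cKO libraries, against 135 and 160 CPM in the control libraries. Mcm4 had 39.7 and 50.9 CPM in the cKO libraries, against 45.3 and 42.2 CPM in the control libraries. After TMM scaling, each of these subunits overlapped between the genotypes. On library totals Mcm2 did not, at 165.2 and 164.4 CPM in the cKO libraries, against 139.8 and 146.5 CPM in the control libraries. Mcm7 had 146 and 107 CPM in the cKO libraries, against 115 and 108 CPM in the control libraries, with cKO 2 alone high. Exons of Mcm7 overlap those of Cops6 and Ap4m1 on the opposite strand, and the sources used here do not say whether counting used strand. The same uncertainty touches Cdc45, Ccna2, Ccnd1, Ccnd3, Ccne2, Cdc20 and Ube2c, whose exons also share bases with a gene on the opposite strand.

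Other replication genes encode the factors that load and activate the ring. Cdc6, which recruits the ring to origins together with Cdt1, had 32.8 and 29.2 CPM in the cKO libraries, against 28.2 and 41.8 CPM in the control libraries. Cdt1 had 25.0 and 52.1 CPM in the cKO libraries, against 27.4 and 51.3 CPM in the control libraries. Cdt1 was thus paired across genotypes, with cKO 2 and control 1 low and cKO 5 and control 6 high. Cdc45, which binds the ring to make the active helicase, was the scarcest per exon length of the 43, at 1.38 RPKM. It had 4.88 and 4.39 CPM in the cKO libraries, against 3.38 and 6.71 CPM in the control libraries. Gins1 and Gins2 encode subunits of GINS, the other partner of the ring in the active helicase. Gins2 had the widest range of the replication genes, with 9.77 and 23.2 CPM in the cKO libraries and 8.59 and 19.3 CPM in the control libraries, and repeated the pairing seen for Cdt1. Its exons share 2758 bases with Gse1 on the opposite strand, and reads of the pair cannot be told apart without strand. Gins1 had 33.7 and 51.2 CPM in the cKO libraries, against 27.5 and 36.4 CPM in the control libraries, with cKO 5 highest and the groups overlapping. On library totals Gins1 kept the genotypes apart. Its log2 fold change of 0.41 ± 0.39 (edgeR adjusted p = 0.9997) was the highest among the replication genes.

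The libraries that were high for Cdt1, Gins2, Mcm3 and Mcm5, cKO 5 and control 6, were also those with the higher microglia marker sums given above. Their border macrophage sums were likewise higher, since 10 markers summed to 351 and 1979 CPM in the cKO libraries and to 913 and 1314 CPM in the control libraries. Of these 10 markers, 1 was at 0 in cKO 2, 1 in control 1 and 2 in control 6. The part of cell composition in these values was not tested.

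Genes that supply nucleotides and the sliding clamp varied by less than 2-fold over the libraries. Rrm1, the large subunit of ribonucleotide reductase and the most abundant of the 43 by reads, had 254 and 350 CPM in the cKO libraries, against 237 and 280 CPM in the control libraries. The groups overlapped after TMM scaling and not on library totals, with a log2 fold change of 0.22 ± 0.36 (edgeR adjusted p = 0.9997). Rrm2, the small subunit, which limits the enzyme in S phase, had 43.9 and 35.6 CPM in the cKO libraries, against 27.0 and 34.7 CPM in the control libraries. Both cKO libraries lay above both controls, cKO 5 by a small margin, with a log2 fold change of 0.37 ± 0.34 (edgeR adjusted p = 0.9997). Tyms, thymidylate synthase, had 44.9 and 52.6 CPM in the cKO libraries, against 42.3 and 46.6 CPM in the control libraries. Pcna, the sliding clamp of DNA polymerases, had 7.25 and 10.1 CPM in the cKO libraries, against 7.53 and 7.72 CPM in the control libraries. At 3.38 RPKM, Pcna was lower than every MCM subunit per exon length. The annotation holds the processed pseudogenes Pcna-ps1 and Pcna-ps2, so this count is uncertain.

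The genes of G2 and mitosis leaned towards higher values in the cKO libraries, with 20 positive and 2 negative fold changes and a median log2 fold change of 0.23. Kif11 and Mki67 were the negative ones. Without cKO 5 that median was 0.12, and without cKO 2 it was 0.35. Fold changes of cell type markers also leaned in sign. They were positive for 13 of 13 radial glia markers (median log2 fold change 0.92) and 9 of 10 intermediate progenitor markers (1.26). The same held for 15 of 15 excitatory neuron markers (1.21) and 8 of 9 border macrophage markers (0.60). Positive values were found for 0 of 20 microglia markers (-0.48) and 0 of 12 endothelial markers (-0.61). No radial glia or intermediate progenitor marker had both cKO libraries above both controls, and 1 excitatory neuron marker did. The radial glia and intermediate progenitor sums were highest in cKO 2 and lowest in cKO 5. The highest library was cKO 5 for 16 of the 22 mitotic genes, beside 25.8% of all genes tested. On library totals it was cKO 2 for 14 and cKO 5 for 7, beside 47.8% and 20.1% of all genes. The part of radial glia, intermediate progenitors or other cells in the mitotic values was not tested. Ube2c and Cdc20 had the smallest unadjusted p of the group, and both act with the anaphase-promoting complex, the ubiquitin ligase that ends mitosis. Ube2c, its ubiquitin-conjugating enzyme (chromosome 2, 164769898 to 164778822, plus strand, GRCm38), had 100.1 and 114 CPM in the cKO libraries, against 72.8 and 73.2 CPM in the control libraries. The groups did not overlap, and the gap between them was wider than the difference within either. The log2 fold change was 0.55 ± 0.29 (edgeR unadjusted p = 0.121, adjusted p = 0.9997), positive in 2 of 2 cKO libraries against either control. Cdc20, its activator and the most abundant of the 43 per exon length at 84.1 RPKM, had 186 and 166 CPM in the cKO libraries, against 135 and 135 CPM in the control libraries. Here too the genotypes did not overlap, with a log2 fold change of 0.38 ± 0.30 (edgeR unadjusted p = 0.261, adjusted p = 0.9997).

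Cdk1, the kinase that drives entry into mitosis, and its A- and B-type cyclins were also slightly higher in the cKO libraries without passing the test. Cdk1 had 20.2 and 25.4 CPM in the cKO libraries, against 17.6 and 20.2 CPM in the control libraries, so that cKO 2 stood barely above control 6. Ccna2 had 39.7 and 45.1 CPM in the cKO libraries, against 39.3 and 26.4 CPM in the control libraries, with control 6 alone low. Ccnb2 had 9.16 and 9.24 CPM in the cKO libraries, against 7.03 and 6.45 CPM in the control libraries. Ccnb1, by contrast, overlapped, with 144 and 128 CPM in the cKO libraries and 129 and 121 CPM in the control libraries. Pseudogenes are annotated for both B-type cyclins, and Ccnb2-ps itself had more CPM in cKO 2 and control 1 than in the other libraries.

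The mitotic kinases and the chromosomal passenger proteins varied by less than 2-fold over the libraries. Plk1, a kinase of centrosomes and kinetochores, had 26.2 and 29.2 CPM in the cKO libraries, against 22.8 and 25.0 CPM in the control libraries, without overlap. Aurka, the Aurora kinase of the spindle poles, had 94.7 and 115 CPM in the cKO libraries, against 84.3 and 97.8 CPM in the control libraries. Tpx2, which activates Aurora A on the spindle, had 155 and 135 CPM in the cKO libraries, against 110 and 114 CPM in the control libraries. After TMM scaling, Tpx2 therefore separated the genotypes while its partner Aurka did not. On library totals Aurka separated them too, at 108.7 and 106 CPM in the cKO libraries, against 87.1 and 89.7 CPM in the control libraries. Aurkb, the kinase of the chromosomal passenger complex, had 117 and 170 CPM in the cKO libraries, against 115 and 144 CPM in the control libraries. Birc5, survivin of the same complex, had 130 and 212 CPM in the cKO libraries, against 121 and 156 CPM in the control libraries, and a log2 fold change of 0.30 ± 0.40 (edgeR adjusted p = 0.9997). For both, cKO 5 was highest and cKO 2 lay between the controls after TMM scaling. On library totals both genes kept the genotypes apart.

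Genes of the spindle checkpoint and the kinetochore differed in which libraries were high. Bub1, a checkpoint kinase, had 62.0 and 84.2 CPM in the cKO libraries, against 62.6 and 64.8 CPM in the control libraries. Bub1b, encoding the checkpoint protein BubR1, had 74.2 and 82.4 CPM in the cKO libraries, against 70.1 and 70.7 CPM in the control libraries. Of these checkpoint genes, only Bub1b kept the genotypes apart after TMM scaling, by a margin smaller than the difference between its cKO libraries. On library totals Bub1 did so too, at 71.1 and 77.4 CPM in the cKO libraries, against 64.7 and 59.5 CPM in the control libraries. Cenpa, the histone variant of centromeres, had 72.3 and 80.4 CPM in the cKO libraries, against 56.1 and 73.5 CPM in the control libraries. Cenpe, a kinetochore motor, had 82.8 and 134 CPM in the cKO libraries, against 114 and 99.9 CPM in the control libraries, with a log2 fold change near zero. Cenpf, a kinetochore protein of G2 cells, had 70.1 and 61.0 CPM in the cKO libraries, against 51.7 and 58.0 CPM in the control libraries, with both cKO libraries above both controls.

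The motor proteins of the spindle did not move as a block. Kif11, which slides spindle poles apart, had 37.1 and 34.5 CPM in the cKO libraries, against 45.3 and 47.9 CPM in the control libraries. It was the sole gene of the 43 with both cKO libraries below both controls. Its log2 fold change was -0.38 ± 0.30 (edgeR unadjusted p = 0.263, adjusted p = 0.9997). It turned to 0.90 when libraries were scaled to microglia markers, beside a median of 1.24 for all genes tested. Kif20a, a motor of cytokinesis, had 77.7 and 90.5 CPM in the cKO libraries, against 72.2 and 73.4 CPM in the control libraries, without overlap. Its exons overlap Cdc23 on the opposite strand. Kif23, a motor of the central spindle, was low at 20.2 and 15.7 CPM in the cKO libraries, against 18.5 and 16.2 CPM in the control libraries. Hmmr, a microtubule-binding protein of the spindle, had 70.9 and 91.7 CPM in the cKO libraries, against 71.3 and 62.4 CPM in the control libraries. Kif23 and Hmmr overlapped between the genotypes after TMM scaling, and on library totals Hmmr did not.

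Mki67 and Top2a are widely used markers of dividing cells, and for both the genotypes overlapped. Mki67, which coats mitotic chromosomes and is absent from resting cells, had 60.1 and 150.1 CPM in the cKO libraries, against 92.9 and 120.0 CPM in the control libraries. Both controls lay between the cKO libraries, and the log2 fold change was -0.02 ± 0.54 (edgeR adjusted p = 0.9997). On library totals its sign was positive, at 0.006. Top2a, the topoisomerase that untangles sister chromatids, had 170 and 184 CPM in the cKO libraries, against 174 and 125 CPM in the control libraries. Control 6 alone was low, and the log2 fold change was 0.25 ± 0.33 (edgeR adjusted p = 0.9997).

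The balance of replication to mitotic transcripts needs no scaling between libraries, since both sums come from the same library. The replication sum divided by the sum of G2 and mitosis genes was 0.686 and 0.754 in the cKO libraries, against 0.762 and 0.851 in the control libraries. Both cKO libraries lay below both controls, but cKO 5 and control 1 differed by far less than the libraries of either genotype. As a log2 ratio, the difference of cKO minus control was -0.16, beside a pooled SD of 0.105 between libraries of a genotype. Other genes of the same roles gave 0.716 and 0.782 in the cKO libraries, against 0.808 and 0.853 in the control libraries. Leaving out Rrm1 and Top2a, the most abundant of each role, gave 0.602 and 0.647 in the cKO libraries, against 0.692 and 0.743 in the control libraries. When each gene counted equally, as a median of log2 deviations, replication minus mitosis was -0.12 and 0.005 in the cKO libraries, against -0.05 and 0.09 in the control libraries, and the genotypes overlapped. The separation of the genotypes thus held for abundance-weighted sums and not for the median gene.

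The D- and E-type cyclins, which start the cycle by activating Cdk4 or Cdk6 and Cdk2, varied most. Their median log2 fold change was -0.03, with 2 positive and 3 negative, and after TMM scaling no gene kept the genotypes apart. Ccnd2 (chromosome 6, 127125162 to 127152193, minus strand, GRCm38) encodes a D-type cyclin of cycling cortical progenitors. It had 280 and 36.6 CPM in the cKO libraries, against 126 and 61.9 CPM in the control libraries. The range of 7.63-fold was the widest of the 43, cKO 2 was highest and cKO 5 lowest, and the log2 fold change was 0.75 ± 1.03 (edgeR adjusted p = 0.9997). It was 1.57 without cKO 5 and -1.33 without cKO 2. Radial glia markers put the libraries in the same order. Intermediate progenitor markers, 10 of 10 in the tables, did so too, with sums of 624 and 203 CPM in the cKO libraries and 356 and 232 CPM in the control libraries. Among them Btg2 alone had 138.5 CPM in cKO 5 and 156.6 CPM in control 6, and it was highest in control 1. Of those 10, 2 were at 0 in cKO 5 and 1 in control 6, while no radial glia marker was at 0 in any library. The order was not particular to progenitor markers. The 11 interneuron markers gave it as well, with sums of 346 and 56.5 CPM in the cKO libraries and 97.6 and 64.8 CPM in the control libraries. The part of any of these cells in the Ccnd2 values was not tested.

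Ccnd1 and Ccnd3 behaved differently from Ccnd2. Ccnd1, the D-type cyclin that answers growth signals, had 102 and 159 CPM in the cKO libraries, against 176 and 111 CPM in the control libraries. Its log2 fold change was -0.14 ± 0.42 (edgeR adjusted p = 0.9997), and control 1 and cKO 5 were the high libraries. Ccnd3 had 141 and 100.3 CPM in the cKO libraries, against 182 and 104 CPM in the control libraries, with a log2 fold change of -0.25 ± 0.43 (edgeR adjusted p = 0.9997). Control 1 and cKO 2 were the high ones, the libraries in which endothelial markers were also high. The 12 endothelial markers, none at 0, summed to 3825 and 927 CPM in the cKO libraries and to 5700 and 1389 CPM in the control libraries. The 11 pericyte and fibroblast markers gave the same order, with 3092 and 312 CPM in the cKO libraries and 3814 and 828 CPM in the control libraries. Of these 11, 1 was at 0 in cKO 5 and 1 in control 6. The radial glia and excitatory neuron sums were likewise higher in control 1 and cKO 2 than in the other libraries. The part of any of these cells in Ccnd3 was not tested. On scaling to microglia markers, the log2 fold changes of Ccnd1 and Ccnd3 turned positive, at 0.79 and 1.03. Both stayed below the median of all genes tested under that scaling, 1.24.

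The E-type cyclins, which push cells from G1 into S phase, were less abundant. Ccne1 had 14.7 and 36.3 CPM in the cKO libraries, against 18.6 and 33.5 CPM in the control libraries, the pairing of libraries seen for Cdt1 and Gins2. Ccne2 had 42.2 and 60.3 CPM in the cKO libraries, against 36.7 and 44.6 CPM in the control libraries, and a log2 fold change of 0.34 ± 0.35 (edgeR adjusted p = 0.9997). For Ccne2 the genotypes overlapped, since cKO 2 lay below control 6. On library totals Ccne2 did separate them, at 48.4 and 55.5 CPM in the cKO libraries, against 37.9 and 40.9 CPM in the control libraries.

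**Figure D5:**
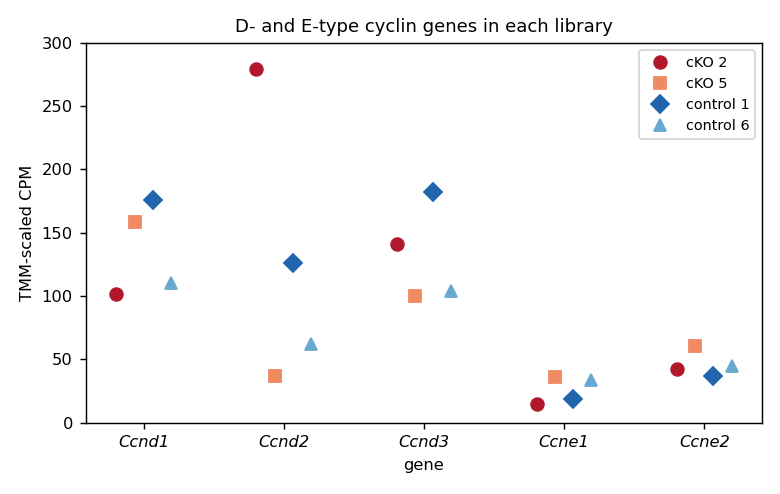
Points show the level (TMM-scaled CPM) of the D- and E-type cyclin genes in each library. Ccnd2 spreads from 36.6 CPM in cKO 5 to 280 CPM in cKO 2, while each E-type cyclin stays at or below 60.3 CPM in every library.

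Pif1 had the highest fold change of the 43. Pif1 (chromosome 9, 65587160 to 65595967, plus strand, GRCm38) encodes a DNA helicase that in budding yeast unwinds G-quadruplexes and limits telomerase. It had 24.2 and 23.0 CPM in the cKO libraries, against 12.8 and 12.3 CPM in the control libraries. Both cKO libraries lay well above both controls, and the libraries of a genotype were nearly equal. The log2 fold change was 0.91 ± 0.37, with an edgeR unadjusted p of 0.0638 and an adjusted p of 0.9997, so it did not pass the test over all genes. Among all 15951 genes, 8.33% also had both cKO libraries above both controls.

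Further genes of the same pathways were compared in the same way. None had an edgeR unadjusted or adjusted p under 0.05. Over all genes tested, 8.33% had both cKO libraries above both controls and 7.64% below, the shares to set beside the counts that follow. Of 44 other replication genes tested, 29 fold changes were positive and 15 negative, with a median log2 fold change of 0.08. In 9 (20.5%) both cKO libraries lay above both controls and in 4 (9.09%) below, against 1 and 0 of the 15 replication genes. Of 59 other genes of G2 and mitosis, 51 were positive and 8 negative, with a median of 0.30, and 18 lay above and 1 below. Of 37 CDK inhibitors and regulators of G1, 21 were positive and 16 negative, with a median of 0.07, and 4 (10.8%) lay above and 4 (10.8%) below, near the shares over all genes. Kif14, a motor of cytokinesis, had the smallest unadjusted p of the mitotic genes, with 8.61 and 6.99 CPM in the cKO libraries, against 3.10 and 3.92 CPM in the control libraries. Its log2 fold change was 1.15 ± 0.58 (edgeR adjusted p = 0.9997). Racgap1, which works with Kif23 in the central spindle, had 164 and 158 CPM in the cKO libraries, against 120 and 102 CPM in the control libraries.

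Cdca8 and Ncaph were the most abundant mitotic genes on that list. Cdca8, borealin of the passenger complex, had 159 and 173 CPM in the cKO libraries, against 132 and 165 CPM in the control libraries. Ncaph, a condensin subunit, had 117 and 170 CPM in the cKO libraries, against 149 and 192 CPM in the control libraries. For both, the genotypes overlapped after TMM scaling, and on library totals Cdca8 kept them apart. Among replication genes, Dut, which removes dUTP from the nucleotide pool, had 63.8 and 37.0 CPM in the cKO libraries, against 35.1 and 32.4 CPM in the control libraries. Orc6, a subunit of the origin recognition complex, had 43.2 and 32.5 CPM in the cKO libraries, against 29.5 and 26.4 CPM in the control libraries. These had the smallest unadjusted p of their list, with both cKO libraries above both controls. The most abundant of that list were Rfc2, a subunit of the clamp loader, and Slbp, which binds histone mRNA. Rfc2 had 162 and 231 CPM in the cKO libraries, against 168 and 244 CPM in the control libraries. Slbp had 174 and 213 CPM in the cKO libraries, against 163 and 243 CPM in the control libraries. The genotypes overlapped for both, with log2 fold changes of -0.07 each.

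Among regulators of G1, Cdkn1a, the p21 inhibitor of cyclin-dependent kinases, had 46.0 and 75.9 CPM in the cKO libraries, against 41.7 and 38.0 CPM in the control libraries. That was a log2 fold change of 0.61 ± 0.38 (edgeR adjusted p = 0.9997). Btg1, a gene of antiproliferative function, had 15.2 and 32.7 CPM in the cKO libraries, against 33.6 and 39.3 CPM in the control libraries. Both cKO libraries were thus above both controls for Cdkn1a and below them for Btg1, by a small margin in cKO 5. Cdk4 had 380 and 289 CPM in the cKO libraries, against 302 and 274 CPM in the control libraries, and Cdk6 had 189 and 326 CPM in the cKO libraries, against 281 and 344 CPM in the control libraries. Neither kinase of the D-type cyclins kept the genotypes apart.

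The authors' deposited table for each pair of a cKO and a control library calls genes past a p of 0.05 and a log2 change of 1. The pairs share libraries and each sets a single library against another, so these calls compare libraries. For cKO 2 over control 1, the authors' deposited table called Ccnd2 and Pif1 up and none of the 43 down, beside 20% of its genes up and 11.6% down. For cKO 2 over control 6, the authors' deposited table called the same pair up and none down, beside 33.7% up and 13.4% down. For cKO 5 over control 1, the authors' deposited table called Gins2 up and Ccnd2 and Ccnd3 down, beside 8.79% up and 26% down. For cKO 5 over control 6, the authors' deposited table called none of the 43, beside 9.23% up and 11.4% down. Ccnd2 was thus called in opposite directions for the cKO libraries, and no gene of G2 and mitosis was called in any pair.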

How the data were processed

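RNA of microglia from mouse cortex was measured by sequencing in 2 Bach1 cKO and 2 Bach1 fl/fl libraries. The build mm9 and the programs TopHat2 2.0.12, Bowtie2 2.2.3 and HTSeq 0.6.0 are named per the submitters' processing notes. The sources used here do not give their roles, settings or strandedness. Gene positions in the tables are identical to the GRCm38 annotation for 90.3% of 21922 matched genes and for 42 of the 43 genes described, and GRCm38 is used for positions. Each of the 4 tables deposited by the authors pairs a cKO with a control library. They hold deposited read counts per gene, deposited normalized values in CPM, a deposited ratio of those (fold change), its log2 as deposited, and a deposited p-value and adjusted p-value from a test not given in the sources used here. The deposited adjusted p lies below the p for 66.6% to 80.0% of genes.

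Counts were joined by gene ID, giving 18723 genes with a count in every library. The deposited counts of the genotypes were compared in edgeR 4.0.16 under R 4.3.3 by its two-sided quasi-likelihood test, using TMM factors of 1.15 and 0.919 for cKO 2 and cKO 5 and 1.03 and 0.917 for control 1 and control 6. filterByExpr with a minimum count of 10 left 15951 genes, and Benjamini-Hochberg adjustment ran over all of them at 0.05. A pseudocount of 0.5 CPM was added before log2 deviations. RPKM was computed here from deposited counts, library totals and GENCODE exon lengths, without TMM factors. RefSeq promoters were searched on both strands, using the first window of each gene. The scripts were tested on simulated data. Alternatives were RLE factors, library totals, scaling to microglia markers, DESeq2 1.42.0, limma-voom (limma 3.58.1), other filters on low counts, absent values set to 0 reads, and leaving out each library. Full statistics were given for Mki67, Pif1, the 3 most abundant genes of each role and the 2 with the smallest p, and levels were given, from each further list, for the 2 genes with the smallest p and the 2 most abundant. The 43 genes, the further lists, the markers and the tests were chosen with earlier results of these data known.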

Additional observations from a re-analysis of the deposited data

How the results depend on the processing

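No paired analysis was possible because the replicate numbers in the labels are shared by no libraries of different genotype. With edgeR, DESeq2 or limma-voom, 0 of the 43 genes passed the adjusted threshold under any setting, and 1 (Ccnd2, without cKO 5) had an unadjusted p under 0.05. Scaling to microglia markers moved the median log2 fold change of replication genes to 1.26, of G2 and mitosis genes to 1.38 and of D- and E-type cyclins to 1.03. The median over all genes tested moved to 1.24. When a library was left out, the medians by role ran from -0.073 to 0.27 for replication genes, from 0.12 to 0.35 for G2 and mitosis genes and from -0.02 to 0.33 for the cyclins. The G2 and mitosis genes with both cKO libraries above both controls, 10 in all, numbered 16 on library totals, 2 with microglia scaling and 12 to 19 when a library was left out. Beside these stood 30.6% of all genes without cKO 2 (19), 39.3% without cKO 5 (12), 23.5% without control 1 (13) and 20.2% without control 6 (14). These separation counts, the same for genes lying below, and leaving out libraries for the log2 ratio (-0.24 to -0.08) were alternatives chosen after seeing the data. In the shorter promoter window, from 100 bases before the start, an E2F match stood in 4 of 12 replication promoters. It stood in 0 of 18 promoters of G2 and mitosis genes and in 1.26% of all. A CHR element with a CCAAT box stood in 13 of 18 promoters of G2 and mitosis genes, 1 of 12 replication promoters and 2.09% of all. For the CHR element alone the counts were 15 of 18 and 2 of 12, beside 8.69% of all. For the CCAAT box alone they were 15 of 18 and 8 of 12, beside 24.0% of all. On library totals, the sign turned for Mki67 (0.006), Ccne1 (0.007), Cdc45 (0.000) and Cdt1 (0.024). With microglia scaling it turned for Mcm3 (0.82), Mcm6 (1.10), Cdc6 (1.20), Cdc45 (1.30), Cdt1 (0.96), Ccnd1 (0.79), Ccnd3 (1.03), Ccne1 (0.85), Mki67 (0.79) and Kif11 (0.90). With limma-voom it turned for Cenpe (-0.016). The causes were not tested. Leaving out a library turned the sign of 22 genes, with ranges of -0.073 to 0.43 for Pcna, -0.035 to 0.31 for Mcm2, -0.68 to 0.24 for Mcm3, -0.14 to 0.25 for Mcm4, -0.42 to 0.46 for Mcm5, -0.21 to 0.034 for Mcm6, -0.023 to 0.39 for Mcm7, -0.44 to 0.14 for Cdc6, -0.54 to 0.46 for Cdc45, -0.66 to 0.49 for Cdt1, -0.51 to 0.94 for Gins2 and -0.023 to 0.47 for Rrm1. The ranges were -0.49 to 0.24 for Ccnd1, -1.33 to 1.57 for Ccnd2, -0.59 to 0.20 for Ccnd3, -0.83 to 0.51 for Ccne1, -0.83 to 0.53 for Mki67, -0.15 to 0.42 for Aurkb, -0.04 to 0.43 for Bub1, -0.10 to 0.65 for Birc5, -0.37 to 0.36 for Cenpe and -0.12 to 0.22 for Kif23. With 1 library left in a genotype, its spread is assumed to be that of the other genotype. DESeq2 and RLE factors turned no sign.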
